A study of Homo sapiens with 9 samples.

Results

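The 40 genes described here make, convert and move ceramide, sphingomyelin and glycosphingolipids, and 2 barrier lipid genes of the epidermis, ABCA12 and ABHD5, are counted with them. They were chosen by gene symbol from the 60671 genes of the count tables: serine palmitoyltransferase with its regulators, the ceramide synthases and ceramidases, and the enzymes of sphingomyelin and of sugar-bearing sphingolipids, without the enzymes that turn over sphingosine 1-phosphate (S1P). Levels were measured by RNA sequencing of N/TERT cells, a telomerase-immortalised line of human epidermal keratinocytes, grown without treatment. The control cells were wild type, a second group had SGPL1 knocked out by CRISPR (KO), and another overexpressed SGPL1 (OE), with 3 libraries in each group. SGPL1 encodes S1P lyase, the enzyme that cleaves S1P irreversibly and so takes long-chain bases out of the sphingolipid pool. The submitters call the replicates biological. How many clones stand behind the KO and OE cells, and which promoter drives the overexpression, are not given in the sources used here, so the p-values measure only the spread between these libraries.

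Sphingolipid synthesis starts in the endoplasmic reticulum, where serine palmitoyltransferase joins serine to a fatty acyl-CoA. The product is reduced, acylated by ceramide synthases that each prefer certain chain lengths, and desaturated to ceramide, which is then carried to the Golgi and given a phosphocholine head (sphingomyelin) or sugars (glycosphingolipids). In the epidermis, ceramides with very long acyl chains fill the spaces between cornified cells. They are loaded into lamellar bodies as glucosylceramide and sphingomyelin and are turned back into ceramide outside the cell by lysosomal-type hydrolases and their saposin activators.

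The labels were checked on SGPL1 first. It had 83.9, 95.1 and 98.3 CPM (counts of each gene relative to the library total, scaled by the trimmed mean of M values) in control, 58.8, 58.3 and 61.6 in KO and 1132, 1104 and 929 in OE libraries. The log2 fold change against control was -0.64 ± 0.09 (SE) in KO cells, with an adjusted p of 5.14e-06 by edgeR's quasi-likelihood test, and 3.51 ± 0.09, adjusted p = 4.90e-18 in OE cells. All later fold changes and differences are log2 values ± SE with adjusted p values from this test, unless a ratio of means is named. The 3 groups did not overlap, and the counts, which run over all exons, cannot show the edit itself. Gene counts summed to between 6317564 (KO replicate 3) and 13330479 (OE replicate 3) per library, so that 3 counts correspond to 0.225 to 0.475 CPM. All 12 keratinocyte markers examined were above 1 CPM, and their summed level was 27240 to 27480 CPM in control, 18530 to 20360 in KO and 27210 to 29070 in OE libraries. The markers did not move together. KRT5 averaged 11020, 5850 and 10810 CPM in control, KO and OE, KRT14 5453, 2929 and 7199, and KRT15 2785, 3173 and 1406. On average TP63, KRT15, PERP and S100A2 were higher in KO than in control cells, and the other listed markers were lower. The simple epithelial keratins KRT7, KRT8, KRT18 and KRT19 summed to 1027 to 1193, 1409 to 1562 and 921.5 to 967.8 CPM in the same order. Of 8 genes of differentiated keratinocytes LORICRIN was at 0, KRT1 and FLG were under 1 CPM, and 5 were above it. Their summed level was 240.0 to 274.4 CPM in control, 233.5 to 289.2 in KO and 254.5 to 273.8 in OE libraries, within which KRT10 averaged 56.5, 105.3 and 43.9 CPM, IVL 99.1, 110.8 and 79.1, and TGM1 85.6, 25.8 and 106.8. Of 8 fibroblast genes only COL1A1 was above 1 CPM (25.6, 11.2 and 25.95 on average in control, KO and OE), of 7 melanocyte genes MITF (94.0, 71.1 and 62.5) and PMEL, of 6 leukocyte genes CD14 (3.50, 6.62 and 1.33), and of 4 endothelial genes none, with COL3A1, TYR, PTPRC and PECAM1 at 0. The part of these marker differences in the results below was not tested. In bulk RNA, fewer cells of a kind and less RNA per cell cannot be told apart.

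A trend across all genes touches every KO comparison. Among the 13390 genes tested, the shortest decile by exon length had a median log2 fold change of 0.52 in KO against control cells and the longest decile -0.45, whereas the same deciles had -0.03 and -0.06 in OE against control cells. The members had a median exon length of 4866.5 bases and all tested genes 5038.5. Fold changes were therefore also computed after the trend with length and GC content was removed from each library, and those values, called corrected, are given wherever they end or add a call or move a printed value by more than 1.5 times.

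Of the 40 genes, 38 had enough reads to be tested, and none of them passed that filter through 1 group alone. DEGS2, the desaturase that also adds the hydroxyl group of phytoceramides, had 4 counts in control, 16 in KO and 2 in OE libraries. SMPD3, the neutral sphingomyelinase of the Golgi, had 4, 9 and 7. Neither was tested. In KO against control cells 15 members rose and 7 fell, with 16 not passing, where 26% of all tested genes rose and 25.9% fell. After correction 13 rose and 2 fell, where 26% of all genes rose and 19.9% fell. The 7 became 4 when control replicate 3 or KO replicate 2 was left out. The members' median log2 fold change was 0.11, with all tested genes centred near 0. In OE against control cells 3 rose and 11 fell, with 24 not passing, where 9.28% of all genes rose and 9.34% fell, and the median was -0.09. After correction 4 rose and 11 fell, where 11.1% of all genes rose and 9.82% fell. The 3 that rose as counted became 1 when control replicate 2 or OE replicate 2 was left out. Here and below, the shares of all genes called with 1 library left out were not computed. Both comparisons use the same control libraries. Set directly against each other, KO and OE cells differed in 24 members: 18 were higher in KO cells and 6 lower, where 28.6% of all genes were higher and 29% lower. The corrected counts were 18 and 3, where 28.6% and 25.2% of all genes were called, and the median difference was 0.27 (0.18 corrected). At 1.5-fold or more, 7 members rose and 1 fell in KO against control cells (15.7% of all genes each way), 2 rose and 5 fell in OE against control cells (4.47% and 4.12%), and 13 were higher and 2 lower in KO than in OE cells (18.6% and 18.7%). At an adjusted p under 0.01 the counts were 12 and 4 (20.3% and 20.4%), 1 and 8 (5.53% and 5.16%), and 13 and 4 (23% and 23.1%) in the same order.

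**Figure D1:**
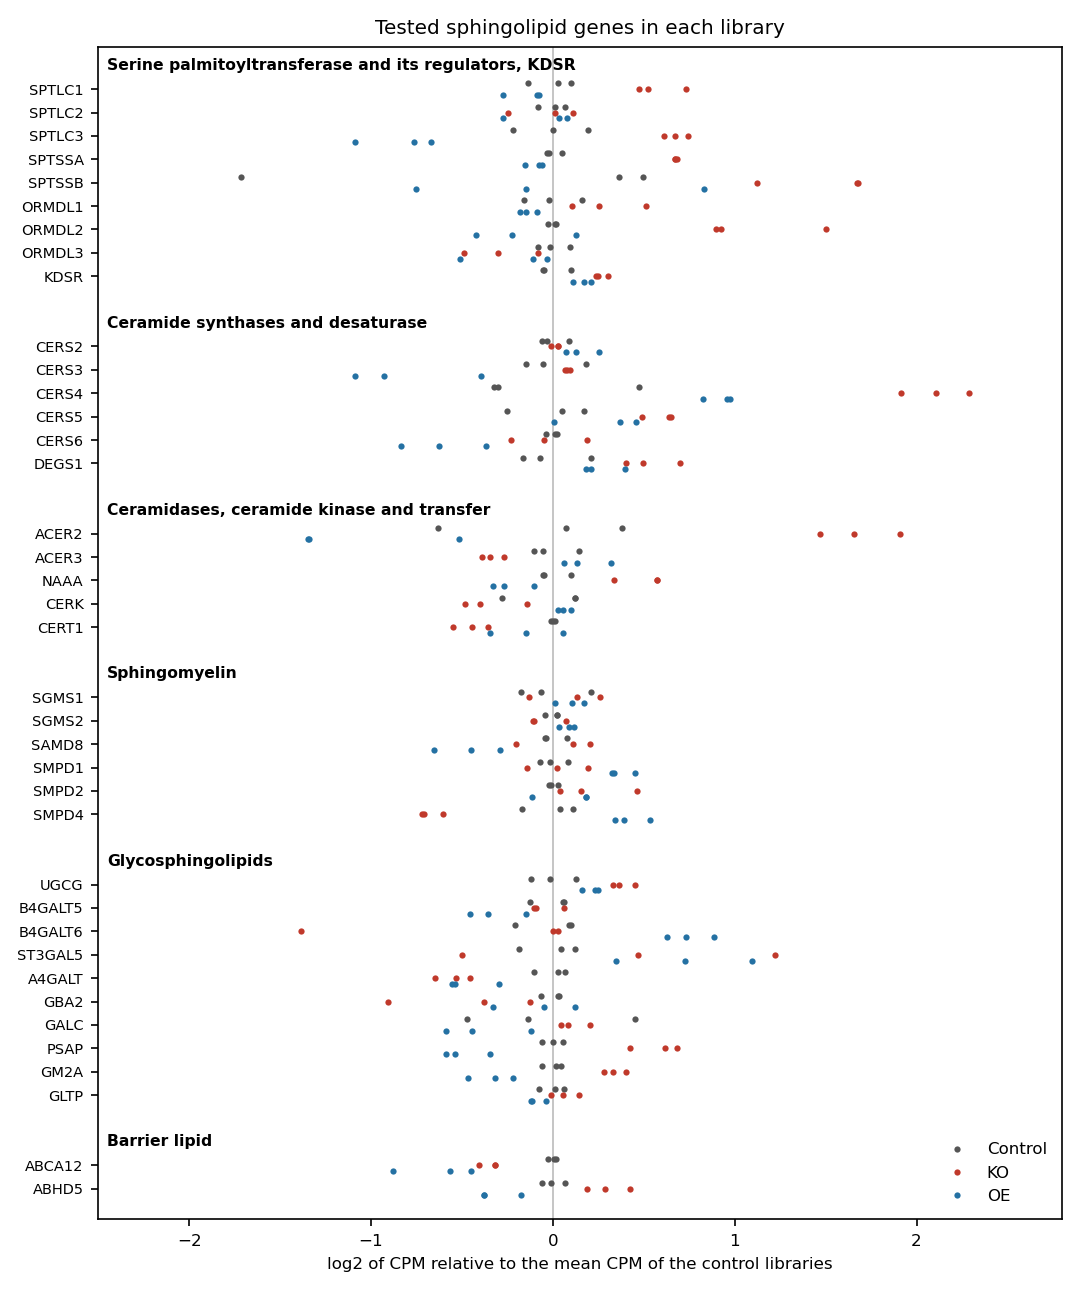
Level of the 38 tested genes in each of the 9 libraries, as log2 of CPM relative to the mean CPM of the 3 control libraries (grey), with KO libraries in red and OE libraries in blue, 1 point per library, ordered by role. CERS4 and ACER2 stand farthest to the right in KO libraries, and PSAP, SPTLC3 and ACER2 show KO libraries right and OE libraries left of the controls, with 1 control library of ACER2 inside the OE range.

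Per kilobase of exon, the members spanned a wide range in control cells. PSAP, the precursor of the saposins, was the most abundant at 588 RPKM, the CPM divided by the kilobases of exon, followed by the GM2 activator GM2A at 107, the globotriaosylceramide synthase A4GALT at 53.5, the lactosylceramide synthase B4GALT5 at 53.0 and the glycolipid carrier GLTP at 49.9. The control libraries of A4GALT, B4GALT5 and GLTP overlapped in RPKM. ABCA12 (25.9), DEGS1 (24.1) and SPTSSA (22.7 RPKM) came next, and the range of DEGS1 overlapped those of the other two. At the low end of the 38 tested members were CERS4 at 0.639, SPTSSB at 0.393 and the GM3 synthase ST3GAL5 at 0.107 RPKM.

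Serine palmitoyltransferase and its small activating subunits were higher in KO than in control cells at 4 of the 5 subunit genes, in a comparison in which 26% of all tested genes were higher, and the call of SPTSSB among them did not pass without control replicate 3. SPTLC1, the subunit shared by all forms of the enzyme, had 115, 98.0 and 109.7 CPM in control, 149.5, 155 and 179 in KO and 89.0, 102 and 101 in OE libraries. All KO libraries lay above the other 6, and the rise was 0.58 ± 0.09, adjusted p = 1.41e-05 against control and 0.72 ± 0.09, adjusted p = 5.06e-07 against OE cells. SPTLC2, its main catalytic partner, gave no call in the fit of the counts as deposited. Its libraries held 168, 179 and 187 CPM in control, 149.9, 192 and 179.6 in KO and 188, 182 and 147 in OE cells, the groups overlapped, and the log2 fold changes were -0.03 ± 0.10 in KO (adjusted p = 0.794, corrected 0.12) and -0.05 ± 0.10 in OE cells (adjusted p = 0.789, corrected -0.03). With the trend in exon length alone removed, SPTLC2 turned and passed as higher in KO cells, at 0.23, adjusted p = 0.0305 against control and 0.25, adjusted p = 0.0171 against OE cells.

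SPTLC3, the alternative catalytic subunit that accepts shorter acyl-CoA, went opposite ways in the edited lines. It had 23.7, 27.1 and 20.3 CPM in control, 39.6, 37.8 and 36.2 in KO and 13.9, 14.9 and 11.2 in OE libraries, and no 2 groups overlapped. It rose in KO cells (0.68 ± 0.14, adjusted p = 2.96e-04) and fell in OE cells (-0.84 ± 0.15, adjusted p = 2.31e-04), and KO cells had 2.84 times the OE mean (1.52 ± 0.15, adjusted p = 6.21e-09). Its gene (ENSG00000172296) lies on chromosome 20, 13008972 to 13169103 of GRCh38.

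SPTSSA, the common small subunit that raises the activity of the enzyme, had 59.4, 62.6 and 59.0 CPM in control, 96.0, 96.8 and 96.2 in KO and 54.3, 57.2 and 57.9 in OE libraries. The 3 KO libraries were nearly equal and all above the rest, for a rise of 0.68 ± 0.09, adjusted p = 9.09e-07, which was 0.27 once corrected (adjusted p = 0.0149) on an exon length of 2662 bases. SPTSSB, the small subunit that lets longer acyl-CoA into the enzyme, was scarce. It had 2.07, 1.90 and 0.449 CPM in control libraries, 4.70, 4.71 and 3.21 in KO and 1.33, 2.62 and 0.875 in OE libraries. Control replicate 3 was the lowest of the 9. The rise in KO cells (1.51 ± 0.49, adjusted p = 0.0127) did not pass when control replicate 3 was left out (1.09, adjusted p = 0.0703), and the difference from OE cells (1.42 ± 0.48, adjusted p = 0.0148) did not pass when KO replicate 1, KO replicate 2 or OE replicate 3 was left out (1.08 to 1.33, adjusted p from 0.0502 to 0.0660).

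The ORMDL proteins restrain serine palmitoyltransferase when ceramide is plentiful, and of the 3 only ORMDL2 passed in KO against control cells in the fit of the counts as deposited. ORMDL2 (ENSG00000123353, chromosome 12, 55818041 to 55821879) had 14.2, 14.6 and 14.6 CPM in control, 26.99, 27.5 and 41.1 in KO and 12.4, 10.8 and 15.8 in OE libraries. KO replicate 3 was the highest, but all KO libraries were clear of the other 6. The rise was 2.20-fold in the means (1.12 ± 0.18, adjusted p = 1.04e-05, corrected 0.84), and 1.27 ± 0.17, adjusted p = 1.44e-06 against OE cells. ORMDL1 had log2 fold changes of 0.31 ± 0.14 in KO (adjusted p = 0.0806, corrected 0.00) and -0.14 ± 0.14 in OE cells (adjusted p = 0.582), and it passed in KO cells without KO replicate 3 (0.39, adjusted p = 0.0408). Its difference between KO and OE cells, 0.44 ± 0.14, adjusted p = 0.0117, was 0.17 once corrected (adjusted p = 0.350) and did not pass when KO replicate 1 was left out (0.32, adjusted p = 0.0923). ORMDL3 had -0.27 ± 0.13 in KO (adjusted p = 0.0811) and -0.20 ± 0.13 in OE cells (adjusted p = 0.308). It passed as lower in KO cells with the trend in exon length alone removed (-0.36, adjusted p = 0.0196), with only the control and KO libraries fitted (-0.28, adjusted p = 0.0381) and without KO replicate 1 (-0.39, adjusted p = 0.0323).

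Shares within these families shifted accordingly. ORMDL2 made up 23.7% ± 1.63 (SD, n = 3) of the summed RPKM of the ORMDL genes in control, 41.7% ± 8.89 in KO and 23.8% ± 1.99 in OE cells, while ORMDL3 went from 54.1% ± 0.400 to 36.0% ± 5.54 in KO cells. Among the SPTLC genes, SPTLC1 made up 42.3% ± 2.92 in control and 51.1% ± 2.68 in KO cells, and SPTLC2 50.6% ± 2.57 and 39.7% ± 2.87. Each of these control and KO ranges was separate, which gives p = 0.1 by an exact two-sided permutation test, the smallest that 3 against 3 libraries allow, so that no share could pass 0.05. The summed RPKM of the 3 SPTLC genes was 39.1 ± 0.913 in control, 48.5 ± 3.83 in KO and 35.7 ± 2.29 in OE cells. That of SPTSSA with SPTSSB was 23.0 ± 0.882, 37.3 ± 0.304 and 21.6 ± 0.762. Shares and summed RPKM, here and for the families below, were not corrected for the trend with length and GC content. SPTSSA made up 97.0% of its pair's sum in KO cells, and its rise was 0.68 as counted and 0.27 once corrected.

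The stretch just before the gene start is printed for 4 genes that are higher in KO than in control and OE cells, to let their promoters be compared: 3 of serine palmitoyltransferase and its regulators, and ACER2, which differed most between KO and OE cells. The sequences are the 250 bases before the start of each gene in RefSeq on GRCh38.p14, 5′ to 3′ on the gene's own strand, with CCAAT boxes, the letters bound by the factor NF-Y, in capitals (ATTGG on the opposite strand). SPTLC1 is read from chr9:92115414-92115663 on the minus strand, SPTSSA from chr14:34462241-34462490 on the minus strand, ORMDL2 from chr12:55817791-55818040 on the plus strand and ACER2 from chr9:19408759-19409008 on the plus strand.
SPTLC1: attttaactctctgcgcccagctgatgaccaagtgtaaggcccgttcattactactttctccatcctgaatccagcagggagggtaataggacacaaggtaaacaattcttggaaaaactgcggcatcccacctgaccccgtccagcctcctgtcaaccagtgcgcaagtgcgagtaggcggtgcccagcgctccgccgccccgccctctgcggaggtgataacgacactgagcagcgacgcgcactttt
SPTSSA: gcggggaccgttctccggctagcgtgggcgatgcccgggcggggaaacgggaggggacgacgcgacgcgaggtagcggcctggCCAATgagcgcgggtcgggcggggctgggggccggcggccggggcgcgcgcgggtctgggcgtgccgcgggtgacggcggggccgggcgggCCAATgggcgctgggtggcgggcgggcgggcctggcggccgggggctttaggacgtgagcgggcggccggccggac
ORMDL2: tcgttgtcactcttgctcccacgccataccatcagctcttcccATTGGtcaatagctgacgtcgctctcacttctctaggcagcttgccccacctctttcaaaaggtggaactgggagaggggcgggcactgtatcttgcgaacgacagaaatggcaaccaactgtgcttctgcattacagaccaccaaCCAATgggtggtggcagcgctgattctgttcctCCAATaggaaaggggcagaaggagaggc
ACER2: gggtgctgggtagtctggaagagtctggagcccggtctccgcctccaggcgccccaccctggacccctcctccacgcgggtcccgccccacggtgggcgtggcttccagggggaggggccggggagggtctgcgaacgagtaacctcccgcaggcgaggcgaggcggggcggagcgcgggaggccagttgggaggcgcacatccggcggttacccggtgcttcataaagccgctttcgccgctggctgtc
SPTSSA holds 2 such boxes and ORMDL2 holds 3, and the letters do not occur in these windows of SPTLC1 and ACER2. The GC content of the windows was 56.4% for SPTLC1, 82.0% for SPTSSA, 54.0% for ORMDL2 and 72.4% for ACER2, against a median of 58.0% over 35114 promoters. Of the 40 members, 32 had a promoter entry, and 12 of these (37.5%) held CCAAT on either strand, as did 37.0% of all genes. The AP-1 letters TGANTCA occurred in 1 member (SGMS2, against 8.06% of all genes), the CLEAR element's core CACGTG in 1 (ABCA12, 7.73%), TATAAA in 1 (SGMS2, 13.05%) and the sterol element TCACNCCAC in 0 (1.09%). All were searched on both strands, no motif of these contains another, and a match describes the letters only.

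KDSR, which reduces the product of serine palmitoyltransferase to sphinganine, rose slightly in KO cells. It had 92.8, 83.7 and 83.3 CPM in control, 103, 102 and 107 in KO and 97.5, 93.6 and 100.2 in OE libraries. The KO libraries lay above all control libraries, by 0.26 ± 0.08, adjusted p = 0.0124 (corrected 0.44), but the call did not pass when control replicate 2 or control replicate 3 was left out (0.23 to 0.24, adjusted p from 0.0625 to 0.0644). The OE libraries also lay above the controls, without passing (0.17 ± 0.08, adjusted p = 0.185). KO and OE cells differed by 0.10 ± 0.08, adjusted p = 0.341, which passed once corrected (0.25, adjusted p = 0.0132).

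The ceramide synthases changed unevenly, and the scarcest of them changed most. CERS4, which prefers long but not very long acyl chains, had 2.07, 2.11 and 3.60 CPM in control, 9.76, 12.7 and 11.2 in KO and 5.09, 5.04 and 4.59 in OE libraries. It was the largest rise among the members in KO cells, at 4.32 times the control mean (11.2 ± 1.46 against 2.59 ± 0.869 CPM, SD, n = 3; 2.11 ± 0.27, adjusted p = 7.37e-07). KO cells also exceeded OE cells (1.19 ± 0.25, adjusted p = 2.51e-04), with no overlap. In OE cells CERS4 rose by 0.92 ± 0.28, adjusted p = 0.0236, a call that did not pass when control replicate 1, control replicate 2 or OE replicate 2 was left out (0.78 to 0.90, adjusted p from 0.0574 to 0.104). The gene (ENSG00000090661) lies on chromosome 19, 8206736 to 8262421.

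CERS3, the synthase of the ultra-long ceramides of the skin barrier, fell in OE cells and did not pass in KO cells. Its level was 57.7, 49.0 and 45.8 CPM in control, 53.7, 53.3 and 54.3 in KO and 38.6, 26.7 and 23.9 in OE libraries. All OE libraries were below the other 6 (-0.79 ± 0.14, adjusted p = 2.44e-04 against control), the KO libraries lay inside the control range (0.08 ± 0.14, adjusted p = 0.650, corrected -0.03), and KO and OE cells differed by 0.86 ± 0.14, adjusted p = 1.33e-05. CERS6, which makes ceramides of shorter chains, was also lowest in OE libraries, with 104, 102 and 99.2 CPM in control, 98.6, 116 and 86.7 in KO and 78.8, 66.0 and 57.0 in OE libraries. It fell in OE cells (-0.60 ± 0.11, adjusted p = 3.90e-04) and had -0.01 ± 0.11 in KO cells (adjusted p = 0.929, corrected -0.07).

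CERS2, the synthase of very long chain ceramides in most tissues, stayed within a narrow range. It had 68.0, 66.9 and 74.0 CPM in control, 69.0, 71.1 and 71.0 in KO and 73.2, 83.2 and 76.1 in OE libraries, with 0.02 ± 0.09, adjusted p = 0.904 in KO (corrected 0.09) and 0.15 ± 0.09, adjusted p = 0.261 in OE cells, and the groups overlapped with the controls. CERS5, which like CERS6 makes palmitoyl ceramide, rose in KO cells. Its libraries had 22.7, 20.9 and 17.0 CPM in control, 28.3, 31.4 and 31.6 in KO and 27.7, 20.3 and 26.1 in OE cells, a rise of 0.59 ± 0.15, adjusted p = 0.00170 in KO and a difference of 0.29 ± 0.15, adjusted p = 0.181 in OE cells, where the ranges overlapped. The difference between KO and OE cells, 0.30 ± 0.14, adjusted p = 0.0771, passed once corrected (0.46, adjusted p = 0.00780).

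As shares of the summed RPKM of the 5 synthases, CERS4 went from 1.48% ± 0.517 (SD, n = 3) in control to 5.79% ± 0.529 in KO and 3.26% ± 0.119 in OE cells. CERS2 was at 34.6% ± 2.42 in control, 31.9% ± 1.46 in KO and 45.1% ± 5.09 in OE cells, and CERS3 at 22.8% ± 2.11, 22.1% ± 1.29 and 15.5% ± 2.86. The OE libraries thus gave CERS2 the largest part of the family, while in control cells CERS2 and CERS6 (34.2% ± 0.820) were level within their spread. The summed RPKM was 43.4 ± 1.30 in control, 47.6 ± 2.46 in KO and 37.2 ± 2.88 in OE cells.

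**Figure D2:**
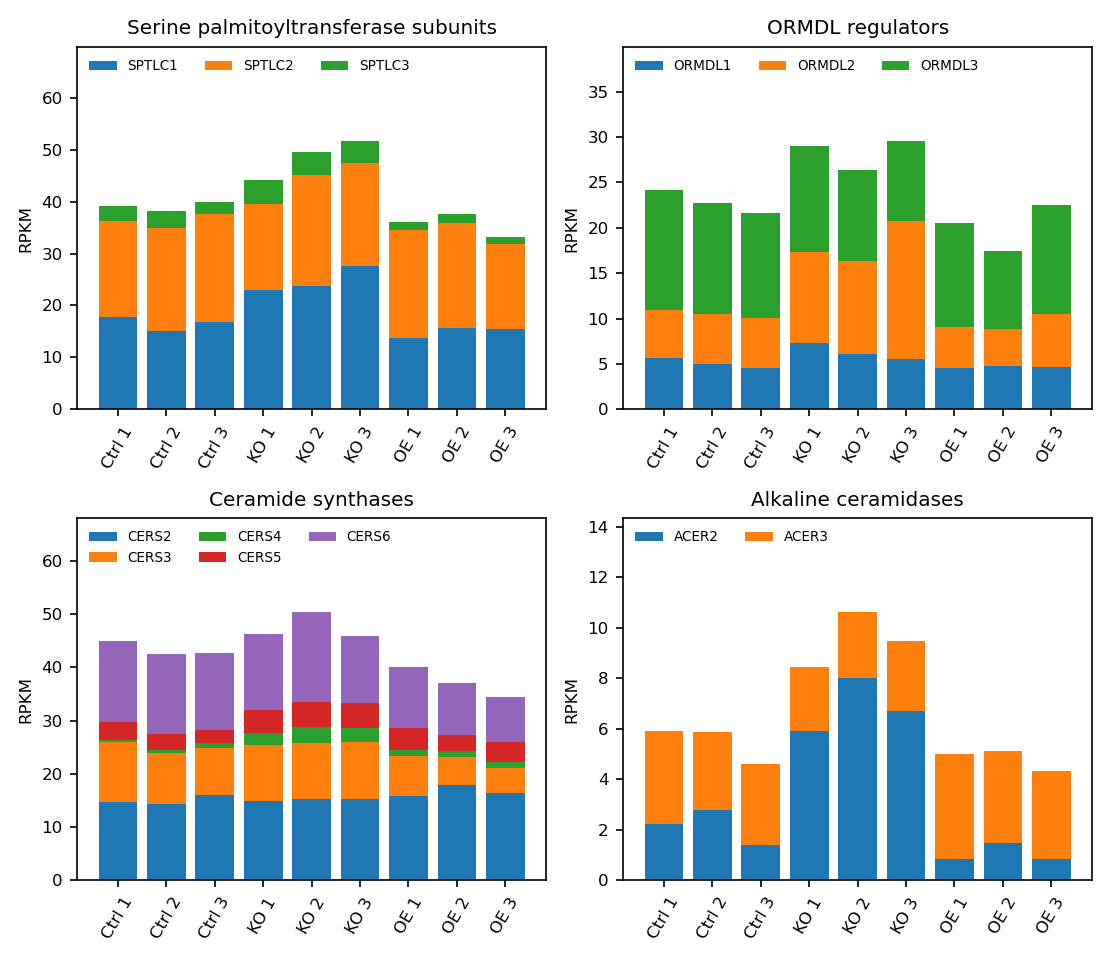
Stacked RPKM of the paralogs of 4 gene families in each of the 9 libraries (Ctrl, control), not corrected for the trend with length and GC content. In KO libraries the SPTLC1 and ORMDL2 segments, the thin CERS4 segment and the ACER2 segment are taller than in control libraries. In OE libraries the CERS3 and CERS6 segments are shorter, and so are the ACER2 segments except that of OE replicate 2, which lies inside the control range.

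DEGS1, the desaturase that completes ceramide, had 68.2, 52.7 and 56.2 CPM in control, 83.3, 78.0 and 95.7 in KO and 68.2, 67.0 and 77.7 in OE libraries. All KO libraries lay above the others and the rise was 0.53 ± 0.11, adjusted p = 2.57e-04, but on exons of 2446 bases the corrected value was 0.16 (adjusted p = 0.181). In OE cells the value was 0.27 ± 0.11, adjusted p = 0.0892, which passed once corrected (0.27, adjusted p = 0.0348) and without control replicate 1 (0.39, adjusted p = 0.0287). KO and OE cells differed by 0.27 ± 0.11, adjusted p = 0.0384, with the sign turned once corrected (-0.12, adjusted p = 0.286), and the call did not pass when KO replicate 1, KO replicate 3, OE replicate 1 or OE replicate 2 was left out (0.18 to 0.28, adjusted p from 0.0613 to 0.197).

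Among the ceramidases, which release the fatty acid and leave sphingosine, ACER2 gave the largest difference of any member between KO and OE cells. This alkaline ceramidase of the Golgi (ENSG00000177076, chromosome 9, 19409009 to 19452505) had 6.22, 7.69 and 3.82 CPM in control, 16.4, 22.2 and 18.6 in KO and 2.32, 4.13 and 2.33 in OE libraries. Every KO library was more than 2-fold above every control library, and OE replicate 2 lay inside the control range. ACER2 rose 3.23-fold in the means in KO cells (1.69 ± 0.25, adjusted p = 5.26e-06) and was 6.51 times as high in KO as in OE cells (2.71 ± 0.27, adjusted p = 9.22e-09). Its fall in OE cells (-1.03 ± 0.29, adjusted p = 0.0132) did not pass when control replicate 2 or OE replicate 3 was left out (-0.85 to -0.79, adjusted p from 0.0571 to 0.107).

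ACER3, the alkaline ceramidase that prefers unsaturated ceramides, fell in KO cells (-0.33 ± 0.13, adjusted p = 0.0351; -0.28 and adjusted p = 0.0687 once corrected) and did not pass when control replicate 1, control replicate 3, KO replicate 1 or KO replicate 2 was left out (-0.36 to -0.26, adjusted p from 0.0531 to 0.149). Its difference between KO and OE cells was -0.51 ± 0.13, adjusted p = 0.00179. ACER2 made up 38.4% ± 8.62 (SD, n = 3) of the summed RPKM of this pair in control, 72.0% ± 2.92 in KO and 21.8% ± 6.42 in OE cells. The exons of ACER2 and ACER3 span 2773 and 8442 bases, and this share was not corrected for the trend. NAAA, a lysosomal amidase related to acid ceramidase, rose in KO cells. It had 25.1, 25.2 and 27.9 CPM in control, 32.9, 38.7 and 38.7 in KO and 24.2, 20.8 and 21.7 in OE libraries, with KO libraries above all others (0.50 ± 0.13, adjusted p = 0.00199 against control, 0.73 ± 0.13, adjusted p = 3.11e-05 against OE cells).

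CERK, the kinase that makes ceramide 1-phosphate, had 41.1, 31.1 and 41.0 CPM in control, 26.99, 28.6 and 34.2 in KO and 38.5, 40.5 and 39.2 in OE libraries. KO replicate 3 lay above control replicate 2, so the ranges overlapped, and the fall (-0.34 ± 0.13, adjusted p = 0.0306) became -0.21 (adjusted p = 0.190) once corrected. It did not pass when control replicate 1, control replicate 3, KO replicate 1 or KO replicate 2 was left out (-0.31 to -0.28, adjusted p from 0.0938 to 0.127). Against OE cells the difference was -0.41 ± 0.13, adjusted p = 0.00952, which became -0.27 (adjusted p = 0.0760) once corrected and did not pass when KO replicate 1 was left out (-0.34, adjusted p = 0.0536).

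CERT1, the carrier that takes ceramide to the Golgi for sphingomyelin synthesis, had 100.4, 99.5 and 99.0 CPM in control, 68.1, 73.3 and 77.8 in KO and 104, 89.9 and 78.4 in OE libraries. The KO libraries were below all control libraries (-0.45 ± 0.10, adjusted p = 5.63e-04), but CERT1 has 18075 bases of exon in the tables and the corrected value was -0.01 (adjusted p = 0.943). The difference from OE cells, -0.31 ± 0.10, adjusted p = 0.0103, turned to 0.09 once corrected (adjusted p = 0.400), and did not pass when KO replicate 1 or OE replicate 1 was left out (-0.26 to -0.21, adjusted p from 0.0545 to 0.0872). The call of CERT1 as lower in KO than in control cells thus depended on the correction. Its sign against control turned only with the trend in exon length alone removed (0.09, adjusted p = 0.43), also with a replicate block added.

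Sphingomyelin synthesis at SGMS1 and SGMS2 gave no call in any comparison. SGMS1, the Golgi synthase, had 19.3, 17.9 and 23.4 CPM in control, 18.4, 24.2 and 22.2 in KO and 20.4, 22.8 and 21.7 in OE libraries. SGMS2, the synthase of the plasma membrane, had 45.8, 43.8 and 45.8 CPM in control, 42.1, 47.5 and 41.9 in KO and 49.0, 48.1 and 46.2 in OE libraries. The KO and control ranges of both genes overlapped. Their log2 fold changes were 0.10 ± 0.15 and -0.04 ± 0.10 in KO and 0.10 ± 0.15 and 0.08 ± 0.10 in OE cells, with adjusted p values of 0.612, 0.768, 0.700 and 0.650. SAMD8, which makes ceramide phosphoethanolamine, fell in OE cells (-0.46 ± 0.11, adjusted p = 0.00429) and had 0.05 ± 0.11 in KO cells (adjusted p = 0.707, corrected 0.01), with a difference between the lines of 0.52 ± 0.11, adjusted p = 3.89e-04. SGMS2 accordingly made up 37.2% ± 1.14 (SD, n = 3) of the summed RPKM of these 3 genes in OE cells and 31.2% ± 1.03 in control cells.

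Of the sphingomyelinases, which return sphingomyelin to ceramide, SMPD4 moved in opposite directions in the edited lines. This neutral enzyme of the endoplasmic reticulum and nuclear envelope (ENSG00000136699, chromosome 2, 130151392 to 130182750) had 88.2, 102 and 107 CPM in control, 65.1, 60.1 and 60.7 in KO and 130.1, 144 and 126 in OE libraries, with no overlap between any 2 groups. It fell in KO cells (-0.68 ± 0.09, adjusted p = 2.56e-06, corrected -0.24, adjusted p = 0.0212) and rose in OE cells (0.42 ± 0.09, adjusted p = 0.00153). KO and OE cells differed by -1.10 ± 0.09, adjusted p = 8.50e-10 (corrected -0.71). SMPD1, the acid sphingomyelinase that takes part in barrier ceramide release, had 13.3, 14.9 and 13.8 CPM in control, 16.0, 14.2 and 12.7 in KO and 19.1, 17.6 and 17.5 in OE libraries. Its OE libraries were the highest 3 of the 9, but the value did not pass (0.37 ± 0.15, adjusted p = 0.101), and in KO cells it was 0.04 ± 0.16, adjusted p = 0.856. SMPD2, another neutral sphingomyelinase, had 0.23 ± 0.17 in KO and 0.09 ± 0.16 in OE cells, with adjusted p values of 0.249 and 0.757 (corrected 0.06 in KO).

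The first step of glycosphingolipid synthesis, UGCG, which adds glucose to ceramide, had 60.6, 65.2 and 72.0 CPM in control, 82.9, 84.8 and 90.1 in KO and 73.7, 77.3 and 78.2 in OE libraries. All KO libraries lay above all others and the rise against control was 0.38 ± 0.09, adjusted p = 0.00135, but the corrected value was 0.14 (adjusted p = 0.187). The OE libraries also lay above the controls without passing (0.21 ± 0.09, adjusted p = 0.111). GBA2, the non-lysosomal glucosylceramidase, fell in KO cells (-0.44 ± 0.15, adjusted p = 0.0191; corrected -0.28, adjusted p = 0.116) and did not pass when control replicate 2, control replicate 3 or KO replicate 2 was left out (-0.43 to -0.24, adjusted p from 0.0525 to 0.181). Against OE cells its difference was -0.36 ± 0.15, adjusted p = 0.0461 (corrected -0.20, adjusted p = 0.254), and that call did not pass when KO replicate 2, KO replicate 3, OE replicate 1 or OE replicate 2 was left out (-0.39 to -0.17, adjusted p from 0.0611 to 0.343).

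The 2 enzymes that add galactose to make lactosylceramide went opposite ways in OE cells. B4GALT5, the abundant one, had 261, 229 and 259.7 CPM in control, 234, 261 and 233 in KO and 226, 195 and 183 in OE libraries. It fell in OE cells (-0.31 ± 0.09, adjusted p = 0.0127), though not when control replicate 1, control replicate 3, OE replicate 2 or OE replicate 3 was left out (-0.29 to -0.24, adjusted p from 0.0530 to 0.0692), and KO cells had -0.04 ± 0.09, adjusted p = 0.709 (corrected -0.11). Its difference between KO and OE cells (0.27 ± 0.09, adjusted p = 0.0105) did not pass when KO replicate 2 or OE replicate 3 was left out (0.20 to 0.21, adjusted p from 0.0519 to 0.0831). B4GALT6, the scarce one, had 6.003, 7.37 and 7.42 CPM in control, 2.65, 7.06 and 6.93 in KO and 11.5, 12.8 and 10.7 in OE libraries. It rose in OE cells (0.75 ± 0.25, adjusted p = 0.0416) with no overlap, but did not pass when control replicate 1, control replicate 2, control replicate 3, OE replicate 1 or OE replicate 2 was left out (0.66 to 0.80, adjusted p from 0.0697 to 0.149), and OE cells exceeded KO cells (KO minus OE -1.08 ± 0.27, adjusted p = 0.00133), with KO replicate 1 the lowest of all. B4GALT6 made up 2.42% ± 0.393 of the summed RPKM of the pair in control and 4.94% ± 0.582 in OE cells (SD, n = 3).

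At the branch points beyond lactosylceramide, A4GALT, which opens the globo series, fell in both edited lines. Its log2 fold change was -0.54 ± 0.09, adjusted p = 2.00e-05 in KO (corrected -0.36) and -0.46 ± 0.09, adjusted p = 5.40e-04 in OE cells, from the same control libraries, and KO and OE cells did not pass against each other (-0.08 ± 0.09, adjusted p = 0.449, corrected 0.11). ST3GAL5, which opens the ganglioside series by making GM3, was scarce. It had 1.53, 1.90 and 1.80 CPM in control, 2.41, 1.23 and 4.06 in KO and 2.88, 2.22 and 3.72 in OE libraries. The KO libraries spread on both sides of the controls and the OE libraries lay above them, and neither passed (0.51 ± 0.46, adjusted p = 0.366 in KO, corrected 0.98 with adjusted p = 0.0843, 0.76 ± 0.43, adjusted p = 0.247 in OE cells).

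Both activators of lysosomal sphingolipid breakdown were higher in KO and lower in OE than in control cells. PSAP had 1948, 1876 and 1800.2 CPM in control, 3014, 2869.9 and 2515 in KO and 1474, 1247 and 1289 in OE libraries. No 2 groups overlapped: it rose in KO cells (2799.8 ± 257 against 1875 ± 73.8 CPM, SD, n = 3; 0.58 ± 0.08, adjusted p = 4.00e-06) and fell in OE cells (-0.49 ± 0.08, adjusted p = 1.75e-04), and KO cells had 2.09 times the OE level (1.07 ± 0.08, adjusted p = 2.69e-10). GM2A, which presents gangliosides to hexosaminidase, had 461, 429 and 453 CPM in control, 592, 562 and 544 in KO and 384, 324 and 359 in OE libraries, again in 3 separate ranges. It rose by 0.34 ± 0.08, adjusted p = 8.73e-04 in KO and fell in OE cells (-0.33 ± 0.08, adjusted p = 0.00400), with 0.67 ± 0.08, adjusted p = 1.45e-07 between them. GALC, the lysosomal galactosylceramidase, had 0.12 ± 0.23 in KO (adjusted p = 0.695) and -0.37 ± 0.23 in OE cells (adjusted p = 0.288). GLTP, which carries glycolipids between membranes, had 0.07 ± 0.08 and -0.09 ± 0.08, with adjusted p values of 0.518 and 0.494 (corrected -0.09 in KO).

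The 2 barrier lipid genes separated. ABCA12, which loads glucosylceramide into lamellar bodies, had 245, 253 and 251 CPM in control, 200.04, 200.3 and 188 in KO and 182, 168 and 136 in OE libraries. Both edited lines lay wholly below the controls. It fell in OE cells (-0.62 ± 0.09, adjusted p = 2.14e-05) and in KO cells (-0.35 ± 0.09, adjusted p = 0.00250), where the corrected value no longer passed (-0.18, adjusted p = 0.0585). KO exceeded OE cells by 0.28 ± 0.09, adjusted p = 0.0110 (corrected 0.42), but not when OE replicate 3 was left out (0.15, adjusted p = 0.0949). ABHD5, the lipase co-activator needed for acylceramide synthesis, had 48.6, 50.4 and 53.1 CPM in control, 61.9, 57.7 and 68.1 in KO and 44.8, 39.0 and 38.9 in OE libraries. Its 3 groups were in separate ranges. It rose in KO cells (0.30 ± 0.10, adjusted p = 0.0178), a call that did not pass when control replicate 1, control replicate 2 or KO replicate 3 was left out (0.24 to 0.29, adjusted p from 0.0551 to 0.0842). It fell in OE cells (-0.31 ± 0.10, adjusted p = 0.0389), a call that did not pass when control replicate 1, control replicate 2, control replicate 3, OE replicate 2 or OE replicate 3 was left out (-0.34 to -0.27, adjusted p from 0.0630 to 0.144). The difference between KO and OE cells was 0.61 ± 0.10, adjusted p = 2.49e-05.

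**Figure D3:**
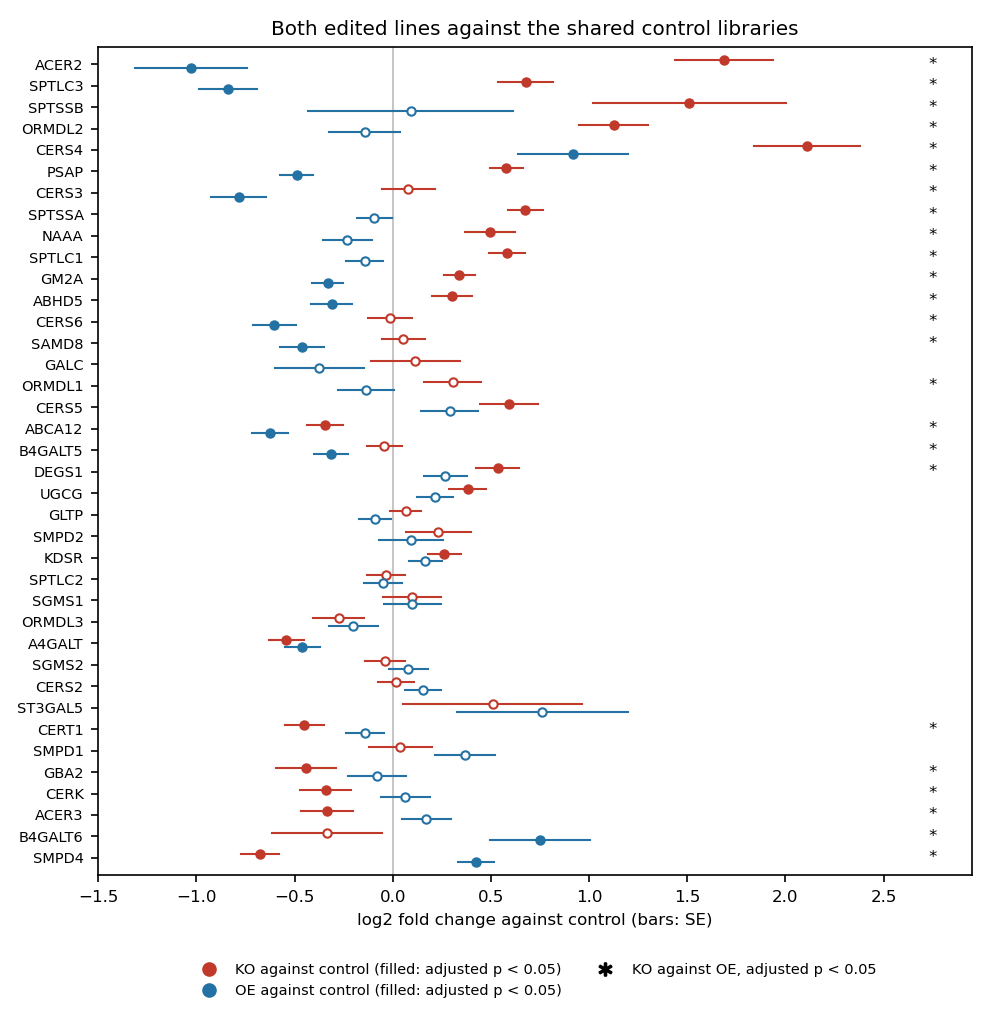
Log2 fold change against the shared control libraries of the 38 tested genes in KO (red) and OE cells (blue), with bars of 1 SE, filled circles for an adjusted p under 0.05 and an asterisk where KO and OE cells differed, ordered by the KO minus OE difference. ACER2, SPTLC3 and PSAP lie on opposite sides of 0 near the top and SMPD4 at the bottom, while CERS4 lies right of 0 and A4GALT and ABCA12 left of 0 in both.

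**Figure D4:**
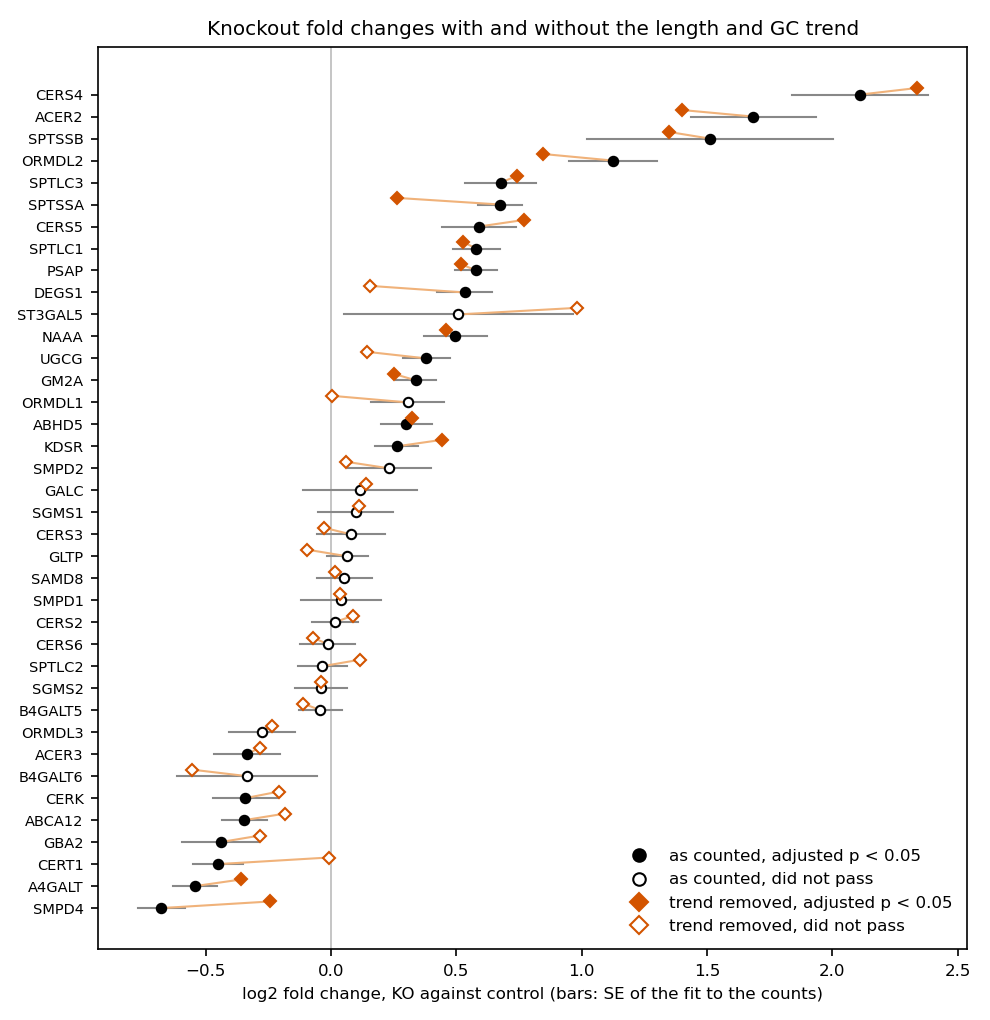
Log2 fold change of the 38 tested genes in KO against control cells from the counts (black circles, bars of 1 SE) and after removal of the trend with exon length and GC content (orange diamonds), filled for an adjusted p under 0.05. CERS4, ACER2, SPTSSB, ORMDL2 and SPTLC3 keep filled marks in both, while DEGS1, UGCG, CERT1, ABCA12, CERK, GBA2 and ACER3 have an open diamond.

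A further 80 genes of the wider pathway were listed by textbook membership, covering S1P turnover, lysosomal hydrolases, ganglioside and globoside enzymes, fatty acid elongation and the acylceramide branch. Of these, 79 were found in the tables and 58 were tested. In KO against control cells 22 rose and 12 fell (21 and 7 corrected), where 26% and 25.9% of all genes did. The shares of all genes after correction were 26% and 19.9%. In OE against control cells 5 rose and 8 fell, where 9.28% and 9.34% of all genes did, and 6 and 7 corrected, where 11.1% and 9.82% did. Leaving out 1 library took the 5 to 3 (without control replicate 1, control replicate 2 or OE replicate 1) and the 8 to 4 (without control replicate 1) or 3 (without OE replicate 2). KO exceeded OE cells at 25 and fell short at 14, where 28.6% and 29% of all genes did, and at 28 and 12 corrected, where 28.6% and 25.2% did. SGPL1, the edited gene, is 1 of the 80, and its change was set by the design. It is counted among the 12 lower in KO cells, the 5 higher in OE cells and the 14 lower in KO than in OE cells. SGPL1 also passed in each corrected comparison, and later counts of these genes include it.

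As counted, the largest rises in KO cells among those with at least 5 CPM included 2 lipid phosphate phosphatases of the cell surface. The 4 largest in that order were PLPP1, SUMF1, PLPP2 and NEU1. The order changed with the correction. HEXA (0.85 as counted, 1.33 corrected) and ASAH1 (0.77 as counted, 1.14 corrected) then exceeded NEU1 (corrected 0.97) and PLPP1 (corrected 0.63). PLPP1 had 6.55, 8.64 and 7.42 CPM in control and 16.4, 14.8 and 12.2 in KO libraries (0.95 ± 0.22, adjusted p = 7.98e-04, corrected 0.63), and PLPP2 had 28.7, 25.6 and 24.6 in control and 48.1, 50.5 and 45.5 in KO libraries (0.87 ± 0.13, adjusted p = 4.76e-06). SUMF1, which activates sulfatases, went from 86.9, 77.3 and 76.7 to 139.9, 155 and 154 CPM (0.90 ± 0.09, adjusted p = 1.06e-08), and the sialidase NEU1 from 33.0, 37.3 and 38.9 to 63.7, 66.6 and 68.0 CPM (0.86 ± 0.11, adjusted p = 9.45e-07). None of these KO and control ranges overlapped.

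The largest falls in KO cells were at B4GALT4, SULT2B1, SPHK2 and ST6GALNAC5. The galactosyltransferase B4GALT4 had 197, 198 and 189 CPM in control and 85.1, 79.5 and 96.1 in KO libraries (-1.17 ± 0.08, adjusted p = 1.03e-10). SULT2B1, the sulfotransferase that makes the barrier lipid cholesterol sulfate, had 46.8, 51.2 and 46.5 in control and 26.3, 19.7 and 19.3 in KO libraries (-1.14 ± 0.13, adjusted p = 1.03e-07). The sphingosine kinase SPHK2 had 15.8, 18.7 and 17.3 against 9.16, 8.63 and 8.96 in KO libraries (-0.96 ± 0.17, adjusted p = 5.40e-05, corrected -0.44), and the sialyltransferase ST6GALNAC5 10.5, 11.1 and 11.7 against 4.82, 6.84 and 6.76 (-0.85 ± 0.21, adjusted p = 0.00122). All 4 KO ranges were below those of the controls.

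In OE cells the largest rise after SGPL1 itself was that of ALOXE3, the epidermal lipoxygenase that works on acylceramide. It had 1.20, 1.05 and 3.03 CPM in control and 7.75, 3.93 and 4.59 in OE libraries (1.61 ± 0.43, adjusted p = 0.00990), and the call did not pass when control replicate 1, control replicate 2 or OE replicate 1 was left out (1.28 to 1.40, adjusted p from 0.0591 to 0.0755). B4GALT4 rose, to 277, 282 and 289 CPM (0.54 ± 0.08, adjusted p = 2.46e-05), as did the fatty acid elongation enzyme HACD3, from 107, 108 and 96.3 to 137, 126 and 138 (0.36 ± 0.09, adjusted p = 0.00365). The largest falls were at the sphingomyelinase-like phosphodiesterase SMPDL3A, from 29.6, 26.8 and 23.6 to 15.7, 14.6 and 11.9 CPM (-0.93 ± 0.14, adjusted p = 4.26e-05), and at B3GALT4, a ganglioside galactosyltransferase, from 9.60, 5.79 and 5.73 to 5.64, 3.43 and 3.06 (-0.82 ± 0.28, adjusted p = 0.0412). The B3GALT4 call did not pass when control replicate 1, OE replicate 2 or OE replicate 3 was left out (-0.73 to -0.53, adjusted p from 0.134 to 0.279). The elongase ELOVL5 had 249, 250.5 and 229 CPM in control and 170.0, 166 and 159 in OE libraries (-0.56 ± 0.08, adjusted p = 2.05e-05) and the galactosyltransferase B4GALT1 673, 661 and 673 against 573, 501 and 449 (-0.40 ± 0.08, adjusted p = 0.00144). Of the genes that rose, B4GALT4 and HACD3 were lower in KO than in control cells, with -1.17 ± 0.08, adjusted p = 1.03e-10 and -0.36 ± 0.09, adjusted p = 0.00151.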

How the data were processed

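Poly-A RNA from 9 libraries, grouped by the genotype in the labels, was sequenced as paired reads. The authors deposited unnormalized read counts for each gene from featureCounts (version 1.5.2 and Ensembl release 101 on GRCh38 per the file headers). The submitters' processing notes also name FastQC, HISAT2 1.03, DESeq2 and featureCounts 0.1.0. Neither strand nor pairing is set in the counting command the headers record, so overlapping and antisense genes cannot be told apart, mates may be counted separately, and reads of near-identical copies are uncertain. Columns of other series numbered 0.

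Counts were fitted with edgeR 4.0.16 (R 4.3.3, limma 3.58.1): filterByExpr with a minimum count of 10, TMM scaling, a quasi-likelihood fit of all 9 libraries with the group as its only term (common biological coefficient of variation 10.2%), two-sided tests, and Benjamini-Hochberg adjustment over 13390 genes, with adjusted p under 0.05 called. Log2 fold changes are given ± SE. RPKM are TMM-scaled CPM per kilobase of exon in the tables. For the corrected values, a loess fit (span 0.3) on log2 exon length and GC content together entered the model as an offset. It was made in each library on log2 CPM minus the gene's mean over the 9 libraries. GC content, from GENCODE transcripts, was known for 99.6% of tested genes. The procedure was tested on simulated data. Replicate libraries differed beyond counting noise, at a ratio of chi-square to its degrees of freedom between 2.74 and 11.9. The highest ratios, 11.9 and 11.1, were those of OE replicate 3 with OE replicates 1 and 2. The latter pair had 4.46, and pairs of control or KO libraries had at most 6.66. Exact permutation tests used scipy 1.17.1 and figures matplotlib 3.10.9. DESeq2 1.42.0, limma-voom, other filters, thresholds and scalings, a replicate block and the omission of each library were tried.

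The members and the gene lists were chosen with earlier results of these data known. Values per library are given for members called in a comparison at 1.5-fold or more and 1 CPM or more in the group with the higher mean, and for step-defining enzymes whatever their result. Of the other pathway genes, the 4 largest rises and 4 largest falls among called genes whose higher group mean reached 5 CPM are named in each comparison with control. Promoter sequences were matched by symbol to RefSeq.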

Additional observations from a re-analysis of the deposited data

How the results depend on the processing

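Over all alternatives, 1839 of the members' fold changes kept their direction and their side of the threshold, 130 lost their call, 22 gained one and 8 with a call in either fit turned. Another 53 values changed sign with no call in either fit (24 of them in KO against control, 24 from leaving out 1 library), at values from -0.45 to 0.18 and adjusted p of at least 0.231. In KO against control these were of B4GALT6, CERS2, CERS3, CERS6, GALC, GLTP, SAMD8, SGMS1, SGMS2, SMPD1, SMPD2 and SPTLC2, so no direction is given for them there. The gained calls were of ORMDL1 and ORMDL3 in KO against control, DEGS1 in OE against control, and SPTLC2, KDSR, CERS5, GALC and SMPD1 in KO against OE. With length and GC content removed, 13 members were higher and 2 lower in KO against control cells, where 26% and 19.9% of all genes were. In KO against OE cells 18 members were higher and 3 lower, where 28.6% and 25.2% of all genes were. Of the other pathway genes, 21 were higher and 7 lower in KO against control, beside the same 26% and 19.9% of all genes. The turned values with a call were SPTLC2 in KO against Control (0.23 with the length trend removed, adjusted p = 0.0305, and 0.23 with a replicate block added, adjusted p = 0.0304), CERT1 in KO against Control (0.087 and 0.0878 in the same fits), CERT1 in KO against OE (0.17 and 0.17, and 0.0878 with GC content also removed) and DEGS1 in KO against OE (-0.12 with length and GC content removed). At an adjusted p under 0.01, 4 members were lower in KO against control (20.4% of all genes), 1 was higher in OE against control (5.53%) and 4 other genes were lower there (5.16%). At 1.5-fold or more, 7 members were higher and 1 lower in KO against control (15.7% of all genes each way). In OE against control 2 members were higher and 5 lower (4.47% and 4.12%), and in KO against OE 13 higher and 2 lower (18.6% and 18.7%). Of the other genes at 1.5-fold, 9 were higher and 8 lower in KO against control (15.7% of all genes each way). In OE against control 3 of them were higher and 2 lower (4.47% and 4.12%), and in KO against OE 15 higher and 12 lower (18.6% and 18.7%).

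Leaving out 1 library at a time gave 13 to 15 members higher and 4 to 7 lower in KO against control (4 without control replicate 3 or KO replicate 2), 1 to 3 higher and 8 to 11 lower in OE against control (1 higher without control replicate 2 or OE replicate 2), and 15 to 19 higher and 4 to 6 lower in KO against OE. For the other genes the ranges were 21 to 23 and 10 to 12 in KO, 3 to 5 and 3 to 7 in OE, and 22 to 26 and 12 to 15 in KO against OE. The low counts of 3 higher in OE came without control replicate 1, control replicate 2 or OE replicate 1, and those of 4 and 3 lower without control replicate 1 and OE replicate 2. The shares of all genes called with 1 library left out were not computed, so these counts cannot be set beside those of all genes. With a replicate block, 114 of 114 calls and non-calls of the members kept their side. Deviations of same-numbered libraries correlated at -0.08 to 0.07 and those of differently numbered ones at -0.09 to 0.11. No effect shared by replicate number was thus seen. These values cannot show whether same-numbered libraries were prepared together. DESeq2's Wald test kept 109 of 114, and limma-voom and DESeq2's size factors kept 114 each. Depth limits DEGS2, SMPD3, SPTSSB and ST3GAL5 most. The cause of these shifts was not tested.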
